A study of Mus musculus with 6 samples.

Results

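The genes described here are 8 mouse genes that mark the first steps of a blood progenitor towards the lymphoid lineages, namely Il7r, Ly6d, Ccr9, Dntt, Rag1, Rag2, Satb1 and Ebf1. They were chosen by symbol, and all 8 were found among the 15845 genes of the count table. RNA was sequenced from LSK cells, the bone marrow fraction that lacks mature lineage markers and carries Sca1 and c-Kit, which holds stem cells and multipotent progenitors. All 6 libraries came from C57BL/6 mice of the genotype Mx1Cre; Jak2VF/VF, so both groups carried the activated V617F form of the kinase Jak2 on both alleles, together with Cre under the interferon-responsive Mx1 promoter. That promoter is not restricted to blood cells, and no library from mice with wild-type Jak2 was analysed here. The mice behind 3 libraries had received TP-3654, which the title of the series calls an inhibitor of Pim1, with a dose of 150 mg/kg/day over 6 weeks. The mice behind the other 3 libraries had received vehicle, labelled PBS, over the same time. The design text calls the 3 libraries of each group biological replicates, and the age of the mice is not given in the sources used here.

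Lymphoid priming is the low-level transcription of lymphoid genes in multipotent progenitors before a lineage is chosen. It is strongest in the progenitors that carry the receptor Flt3 on their surface, and it comes before the common lymphoid progenitor, where IL-7 receptor signalling, terminal transferase and the RAG recombinase become prominent. IL-7 signals through its receptor to the kinases JAK1 and JAK3 and the transcription factor STAT5. JAK2 also acts through STAT5, downstream of other cytokine receptors, and PIM kinases are among the products of STAT5 target genes.

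Library totals ran from 20582057 to 25315596 counts, and 3 counts, taken as the limit of detection, corresponded to 0.119 to 0.146 CPM. CPM, as used here, is the count of a gene relative to the total count of its library, after TMM scaling between libraries. Of the 8 genes, 5 passed the low-count filter and were tested with edgeR, namely Il7r, Ly6d, Dntt, Satb1 and Rag2, while Ccr9, Rag1 and Ebf1 were too low. With p-values adjusted over the 13149 genes tested (false discovery rate, FDR), none of the 5 passed 0.05, and edgeR called 0 genes in either direction (0% of those tested). At an unadjusted p under 0.05, edgeR gave Il7r, Ly6d and Satb1, all higher with TP-3654. By the same rule 10.2% of all tested genes were higher and 6.84% lower. The 8 genes were chosen with earlier results of these data known, so such shares are not an independent yardstick for them. In bulk RNA, fewer cells that express a gene and less RNA per cell cannot be told apart. DESeq2 called Il7r and Dntt higher at the same FDR, where it called 2.98% of genes higher and 1.93% lower, and limma-voom called neither. The summed level of 11 granulocyte-monocyte progenitor markers, all analysed, ran from 3438 to 8908 CPM in TP-3654 and from 12037 to 15034 CPM in vehicle libraries, without overlap, and the part of this shift in the values of the lymphoid genes was not tested. Vehicle replicate 1 stood apart in neutrophil genes, with the calprotectin genes S100a8 and S100a9 at 39.0 and 40.2 CPM, against at most 0.504 CPM in the other vehicle libraries. Without it the log2 fold change was 1.95 for Il7r, 1.57 for Ly6d, 1.01 for Dntt, 0.33 for Satb1 and -0.21 for Rag2.

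Il7r and Dntt were the genes with DESeq2 calls, and the sequence just before a RefSeq transcription start of each is shown. Both carry matches to the E-box, the site read by E proteins and by other basic helix-loop-helix factors. Each line runs from 250 bases before the RefSeq start to 10 bases from it (GRCm38.p6, on the gene's strand). Capitals mark E-boxes (CANNTG), which are 6 letters long, and in Il7r also the 9-letter run TTCAGGGAA, a match to the STAT-type GAS letters TTCNNNGAA. The Il7r window is chr15:9529867-9530126 on the minus strand, and the Dntt window is chr19:41029025-41029284 on the plus strand.
Il7r: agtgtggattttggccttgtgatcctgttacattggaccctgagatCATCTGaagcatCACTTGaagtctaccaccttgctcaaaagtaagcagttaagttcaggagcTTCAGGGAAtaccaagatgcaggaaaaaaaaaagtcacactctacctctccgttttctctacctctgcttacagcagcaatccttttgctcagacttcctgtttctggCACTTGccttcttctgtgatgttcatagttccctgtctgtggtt
Dntt: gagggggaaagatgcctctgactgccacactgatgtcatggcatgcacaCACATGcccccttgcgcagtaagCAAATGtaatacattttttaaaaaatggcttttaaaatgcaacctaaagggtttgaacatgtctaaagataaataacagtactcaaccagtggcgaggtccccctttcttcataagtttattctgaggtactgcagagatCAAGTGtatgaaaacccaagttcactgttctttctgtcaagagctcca
The E-boxes began 204, 192 and 34 bases before the start in Il7r and 201, 178 and 38 bases before it in Dntt. The GAS match in Il7r began 142 bases before the start. The start used for this Il7r window lies inside the gene span of Il7r (9506159 to 9529941), as does its E-box at 34 bases. The Il7r distances hold for that start alone.

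RefSeq windows of 300 bases were found for 7 of the 8 genes, 12 windows in all. Ly6d had no entry. Satb1, which supplied the most windows, and Ebf1 each had more than a single window. Windows of Satb1 partly overlap (51812005 to 51812304 and 51812135 to 51812434), so the 12 windows are not independent. On either strand 10 of the 12 windows held an E-box, against 72.3% of all 32851 mouse windows, and 1 of 12, that of Il7r, held the GAS letters, against 8.30% of all windows. The core of the Ikaros site (GGGAA) was in 10 of 12 windows and in 62.7% of all. The shorter ETS core (GGAA), which lies inside the Ikaros core and is read by factors such as PU.1, was in 12 of 12 and in 96.0% of all. A TATA box (TATAAA) was in 0 of 12 and in 13.6% of all. These are matches of letters and do not show binding.

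Il7r encodes the alpha chain of the IL-7 receptor and lies on chromosome 15 (9506159 to 9529941, GRCm38.p6, minus strand). It stood at 3.61, 3.79 and 2.15 CPM in TP-3654 replicates 1 to 3, against 1.69, 0.766 and 0.871 CPM in vehicle replicates 1 to 3. Every TP-3654 library lay above every vehicle library, as did 14.3% of all tested genes, and vehicle replicate 1 was the closest to the TP-3654 range. The raw counts were low, at 78, 98 and 42 against 43, 17 and 19. The means were 3.18 ± 0.902 CPM with TP-3654 and 1.11 ± 0.509 CPM with vehicle (SD, n = 3 each), a 2.85-fold difference in the fit (log2 fold change 1.51, SE 0.41, 95% interval 0.58 to 2.44, edgeR unadjusted p = 0.00496, adjusted p = 0.140). DESeq2 gave a log2 fold change of 1.50 with an adjusted p of 0.0414, and the adjusted p ran from 0.0414 to 0.351 over all alternatives. Of its 31-mers, 1.66% also occur in another annotated gene.

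Ly6d encodes a small surface protein that separates B-lineage-biased from other common lymphoid progenitors, and lies on chromosome 15 (74762056 to 74763567, minus strand). It stood at 2.45, 1.78 and 0.664 CPM in TP-3654 replicates 1 to 3, against 0.946, 0.360 and 0.733 CPM in vehicle replicates 1 to 3. TP-3654 replicates 1 and 2 lay above the vehicle range and TP-3654 replicate 3 lay within it. The log2 fold change was 1.26 (SE 0.55, 95% interval 0.03 to 2.48, edgeR unadjusted p = 0.0461, adjusted p = 0.283). Leaving out 1 library moved it to between 0.85 (without TP-3654 replicate 1) and 1.61 (with TP-3654 replicate 3 left out).

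Ccr9, the receptor for the chemokine CCL25 that guides progenitors to the thymus, lies on chromosome 9 (123767211 to 123783457, plus strand). It had 13, 11 and 9 counts in TP-3654 libraries and 5, 2 and 10 counts in vehicle libraries, too few for the filter. That corresponded to 0.601, 0.426 and 0.460 CPM with TP-3654, against 0.197, 0.0901 and 0.458 CPM with vehicle. Vehicle replicate 3 lay inside the TP-3654 range and the other vehicle libraries below it (exact permutation test on log2 CPM, two-sided p = 0.2, where 0.1 is the smallest value that 3 against 3 libraries can give).

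Dntt encodes terminal deoxynucleotidyl transferase, which adds untemplated bases at V(D)J junctions, and lies on chromosome 19 (41029275 to 41059525, plus strand). It stood at 197, 221 and 114 CPM in TP-3654 replicates 1 to 3, against 84.2, 49.5 and 126 CPM in vehicle replicates 1 to 3. TP-3654 replicates 1 and 2 lay above all vehicle libraries, while TP-3654 replicate 3 was below vehicle replicate 3. Raw counts of 2234 to 5712 with TP-3654 and 1100 to 2750 with vehicle made counting error small beside the spread between libraries. The means were 177 ± 56.1 and 86.6 ± 38.3 CPM (SD, n = 3 each) in TP-3654 and vehicle libraries. The fitted difference was 2.05-fold (log2 fold change 1.04, SE 0.42, 95% interval -0.01 to 2.08, edgeR unadjusted p = 0.0519, adjusted p = 0.298). DESeq2 called it (log2 fold change 1.02, adjusted p = 0.0265), as did limma-voom with sample weights (1.51, adjusted p = 0.0458). Over all alternatives the adjusted p ran from 0.0265 to 0.483.

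Rag1 and Rag2 encode the paired subunits of the recombinase that cuts antigen receptor genes. They face each other on chromosome 2, Rag2 on the plus strand (101624712 to 101632528) and Rag1 on the minus strand (101638252 to 101649532), with 5723 bases between them. Rag1 had 18, 7 and 1 counts in TP-3654 replicates 1 to 3 and 6, 0 and 3 counts in vehicle replicates 1 to 3. Most of its TP-3654 counts came from replicate 1, and no fold is given at these counts (exact permutation test on log2 CPM, two-sided p = 0.4). Rag2 stood at 2.36, 1.12 and 0.460 CPM in TP-3654 libraries, against 1.69, 1.04 and 2.02 CPM in vehicle libraries. The TP-3654 libraries reached above and below the whole vehicle range (log2 fold change -0.26, SE 0.55, 95% interval -1.50 to 0.98, edgeR adjusted p = 0.820). The direction of Rag2 turned without TP-3654 replicate 3, to a log2 fold change of 0.12. Both genes overlap the annotated gene B230118H07Rik, which shares 208 exon bases with Rag2 on the opposite strand (6.07% of its exon length) and 80 with Rag1 on the same strand. B230118H07Rik itself had 560 to 605 counts in TP-3654 and 646 to 776 counts in vehicle libraries. Reads from the 80 bases shared with Rag1 lie on the same strand and cannot be told apart by strand. For the 208 bases shared with Rag2 the strand setting of the counting would matter, and it is not known.

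Satb1, a chromatin organiser that binds AT-rich DNA and is known to promote lymphoid over myeloid output from stem cells, lies on chromosome 17 (51736187 to 51833290, minus strand). It stood at 91.9, 121 and 132 CPM in TP-3654 replicates 1 to 3, against 84.5, 81.6 and 101 CPM in vehicle replicates 1 to 3. TP-3654 replicates 2 and 3 lay above all vehicle libraries and TP-3654 replicate 1 lay below vehicle replicate 3. The difference was the smallest of the 4 with a positive fold change, 1.29-fold (log2 fold change 0.37, SE 0.15, 95% interval 0.03 to 0.71, edgeR unadjusted p = 0.0377, adjusted p = 0.267). Without TP-3654 replicate 3 the log2 fold change was 0.25.

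Ebf1, the transcription factor that commits progenitors to the B lineage, lies on chromosome 11 (44618100 to 45008096, plus strand). It had 2, 4 and 0 counts in TP-3654 libraries and 3, 5 and 1 counts in vehicle libraries. Both groups lay around the limit of detection, so no fold is given, and a difference was not detectable at this depth (exact permutation test on log2 CPM, two-sided p = 0.6).

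**Figure D1:**
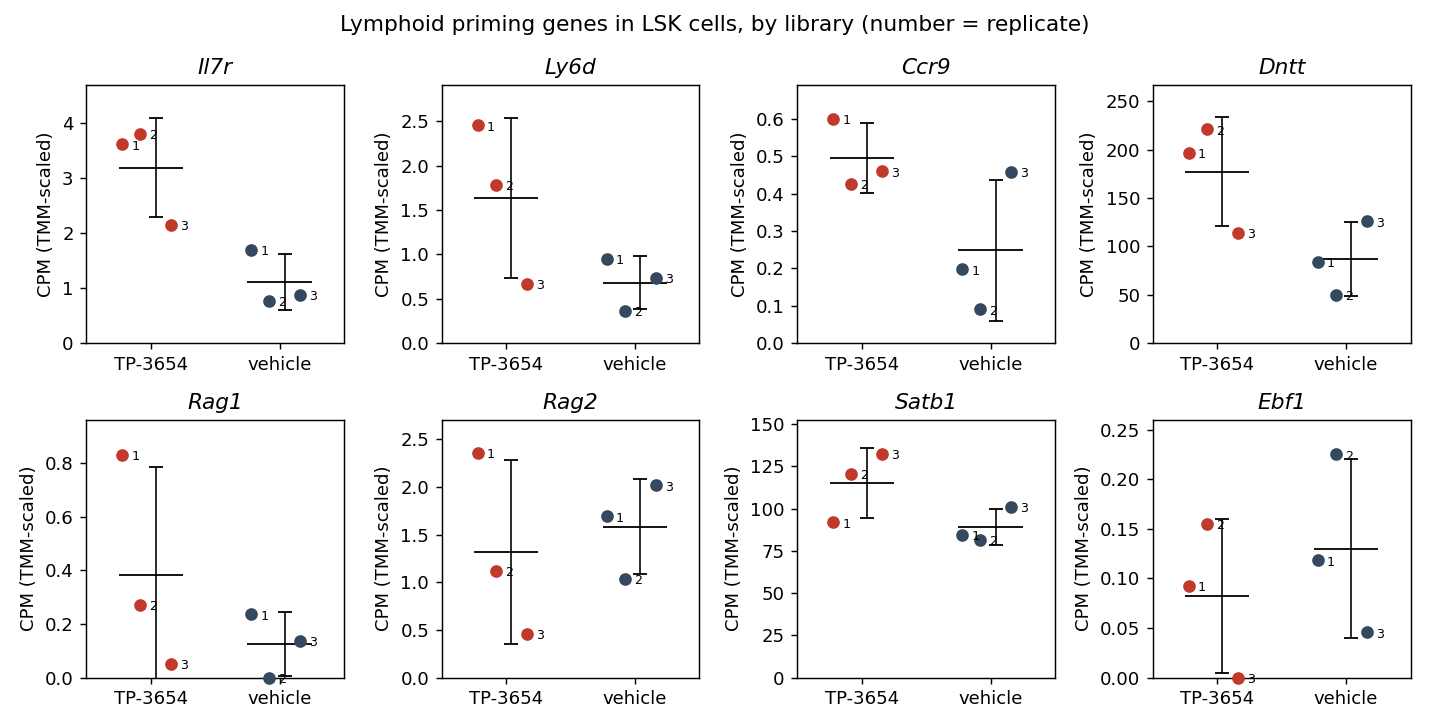
TMM-scaled CPM of each of the 8 genes (vertical axes, each from 0) in the 3 TP-3654 libraries (red) and the 3 vehicle libraries (blue), with the replicate number beside each point, the mean as a bar and the SD as whiskers, drawn no lower than 0. Il7r is the gene whose groups do not overlap, and TP-3654 replicate 3 is the lowest TP-3654 library for Il7r, Ly6d, Dntt, Rag1, Rag2 and Ebf1 but the highest for Satb1.

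To compare levels between genes, mean CPM was divided by the exon length of each gene in GENCODE M21. Dntt led by far, at 77.4 ± 24.5 CPM per kb in TP-3654 and 37.8 ± 16.7 CPM per kb in vehicle libraries (SD, n = 3 each). Satb1 followed at 6.04 ± 1.10 and 4.68 ± 0.551 CPM per kb with TP-3654 and vehicle, and Ly6d at 2.19 ± 1.21 and 0.914 ± 0.398 CPM per kb. Il7r (0.683 CPM per kb with TP-3654, 0.238 with vehicle) and Rag2 (0.384 with TP-3654, 0.462 with vehicle) came next in opposite orders. The ranges of Il7r and Rag2 overlapped in both groups, and those of Ly6d and Rag2 overlapped in vehicle, so the order of these neighbours is not resolved. Rag1 (0.0583 with TP-3654, 0.0189 with vehicle) and Ccr9 (0.0483 with TP-3654, 0.0242 with vehicle) overlapped in both groups. Ebf1 had the lowest mean, 0.00845 CPM per kb with TP-3654 and 0.0133 with vehicle. Its range overlapped that of Rag1 in both groups and that of Ccr9 in vehicle, so its rank is not resolved either. The annotation behind the counts is not known, so the lengths are approximate.

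**Figure D2:**
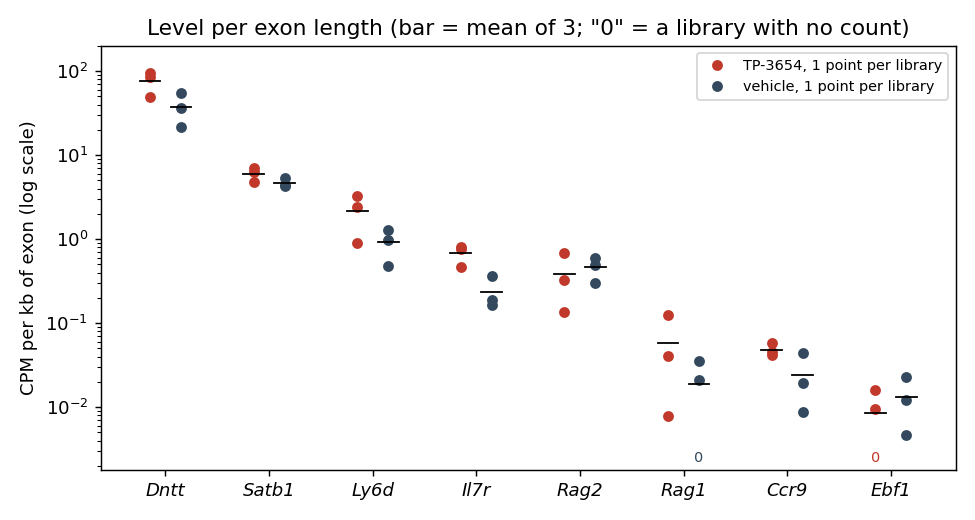
CPM per kb of exon on a log axis for the 8 genes, ordered by the TP-3654 mean, with 1 point per library (TP-3654 red, vehicle blue) and a bar at the mean of 3. The levels run from 77.4 CPM per kb for Dntt to 0.00845 for Ebf1 with TP-3654, and a printed 0 marks a library without a count.

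Leaving out each library in turn kept the sign of Il7r, Ly6d, Dntt and Satb1. Over these 6 fits the log2 fold change of Il7r ran from 1.29 (without vehicle replicate 2) to 1.95 (without vehicle replicate 1), with an unadjusted p under 0.05 in 6 of 6. Dntt ran from 0.74 (without vehicle replicate 2) to 1.41 (without vehicle replicate 3) and was under 0.05 in 2 of 6, as were Ly6d and Satb1. Of the 8 genes, 1 to 3 had an unadjusted p under 0.05 in edgeR in each of these fits, and none reached the FDR of 0.05.

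**Figure D3:**
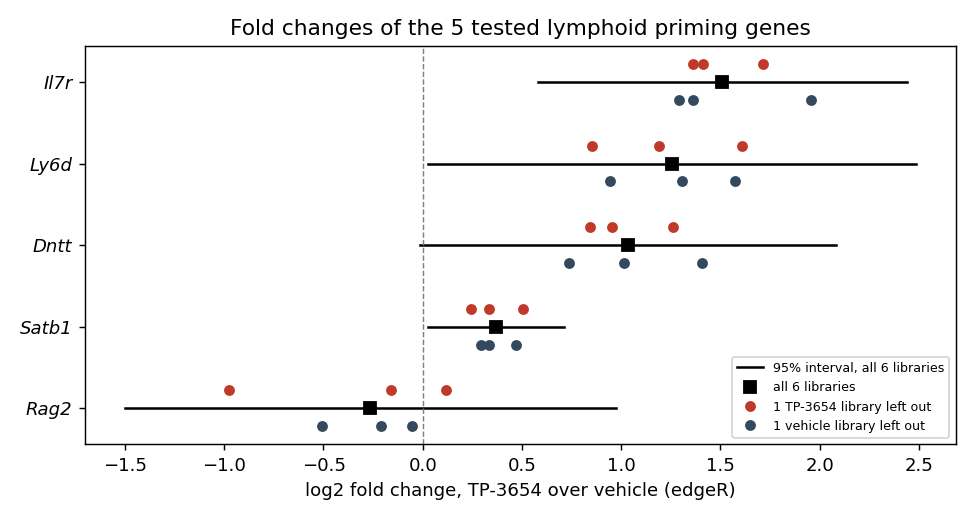
Log2 fold change of TP-3654 over vehicle in edgeR for the 5 tested genes (square, all 6 libraries, with its 95% interval as a line), and for fits without 1 TP-3654 library (red, above) or without 1 vehicle library (blue, below). The points of Il7r lie between 1.29 and 1.95, and those of Rag2 lie on both sides of 0.

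The authors' deposited table lists 6 of the 8 genes. It gives Il7r a log2 fold change of 1.44 (adjusted p = 0.270), Ly6d one of 1.39 (adjusted p = 0.245) and Dntt one of 0.92 (adjusted p = 0.569). Satb1 has 0.21 (adjusted p = 0.578), Ccr9 1.09 (adjusted p = 0.700) and Rag2 -0.26 (adjusted p = 0.897) in the authors' deposited table. No member passed 0.05 there, Dntt included, and the signs are those of the counts.

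Around these genes, the list of lymphoid-primed progenitor genes held 23 tested members of 25, with a median log2 fold change of 0.10 against 0.01 over all tested genes. Over all genes 0 of them passed in edgeR. At an unadjusted edgeR p under 0.05 the list had 6 higher and 3 lower, and DESeq2 calls were 4 higher and 1 lower. The shares over all tested genes were 10.2% higher and 6.84% lower at that p, and 2.98% and 1.93% in DESeq2. The counts of this list and of the 5 lists after it stand against these shares. The lists were chosen with earlier results of these data known, so the shares are not an independent yardstick for them. All 3 TP-3654 libraries lay above all vehicle libraries for 14.3% of tested genes, and below them for 11.6%. Lax1, an adaptor of lymphocyte signalling, stood at 34.3, 34.6 and 33.0 CPM with TP-3654, against 17.9, 11.5 and 12.1 CPM with vehicle (log2 fold change 1.30, SE 0.19, edgeR adjusted p = 0.0716). Its TP-3654 libraries lay close together and far above vehicle. Flt3, the receptor tyrosine kinase that marks lymphoid-primed progenitors, stood at 205, 264 and 333 CPM with TP-3654 and 145, 132 and 191 CPM with vehicle, with no overlap. Gimap6, a GTPase of lymphocytes, had a log2 fold change of 0.71 and the transcriptional co-regulator gene Mn1 one of 1.19.

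Of the lymphoid transcription factors, 28 of 32 were tested, with a median of 0.05, 0 edgeR calls over all genes, 6 higher and 3 lower at an unadjusted edgeR p under 0.05, and 3 higher and 1 lower called in DESeq2. Tox, an HMG-box factor of T and innate lymphoid development, stood at 10.5, 5.38 and 10.4 CPM with TP-3654, against 2.88, 1.76 and 1.79 CPM with vehicle. Its lowest TP-3654 library was above the highest vehicle library (log2 fold change 2.03, SE 0.35, edgeR adjusted p = 0.0756). Zfp521 (log2 fold change 0.74), a zinc finger factor known to restrain Ebf1 in B-cell development, and Bach2 (0.74), a repressor that favours lymphoid over myeloid fate, were also higher without passing in edgeR. Irf8, which drives monocyte and dendritic cell fate and also acts in B cells, stood at 137 CPM with TP-3654 and 213 CPM with vehicle (log2 fold change -0.64). Tcf3 and Ikzf1, which encode the E2A proteins and Ikaros and were picked here after their values were seen, had log2 fold changes of -0.00 and -0.04 (SE 0.11 and 0.12).

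Genes of later lymphoid stages were grouped by lineage. Of 19 B-lineage genes 11 were tested, with a median of 0.07. With edgeR 0 passed over all genes and 1 had an unadjusted p under 0.05, Cd72, a B-cell co-receptor (42.2 CPM with TP-3654, 28.8 CPM with vehicle, log2 fold change 0.55), and DESeq2 called 0. Of 26 T, NK and innate lymphoid genes 14 were tested, with a median of 0.67. In edgeR 0 passed over all genes, with 7 higher and 1 lower at an unadjusted p under 0.05, while calls in DESeq2 were 3 higher and 1 lower. Il18rap, a chain of the IL-18 receptor, stood at 85.0, 96.4 and 108 CPM with TP-3654 and 52.7, 68.4 and 60.3 CPM with vehicle. The innate lymphoid regulators Rora (log2 fold change 1.20) and Zbtb16 (0.66) were higher in every TP-3654 library, and Nkg7, a granule protein gene of killer cells, was lower in every one (-0.57).

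The partners of Dntt and the RAG proteins in V(D)J recombination were all tested, 13 of 13, with a median of 0.14. By edgeR 0 passed over all genes, with 2 higher and 2 lower at an unadjusted p under 0.05, while DESeq2 gave 1 higher. Xrcc5, which encodes the Ku80 end-binding protein, stood at 43.1, 39.0 and 43.3 CPM with TP-3654 and 26.1, 29.1 and 27.0 CPM with vehicle (log2 fold change 0.61, SE 0.12, edgeR adjusted p = 0.0818). Atm, the kinase that signals DNA breaks, had a log2 fold change of 0.77, against 0.25 (adjusted p = 0.366) in the authors' deposited table. The X-family polymerases related to terminal transferase went the other way, Polm with -1.03 (SE 0.39) and Poll with -0.44 (SE 0.18), neither passing over all genes in edgeR.

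In the IL-7 receptor signalling list 19 of 19 were tested, with a median of 0.12. By edgeR 0 passed over all genes, with 5 higher and 1 lower at an unadjusted p under 0.05, while DESeq2 gave 3 higher. The receptor kinases Jak3 (290 CPM with TP-3654, 194 CPM with vehicle) and Jak1 (327 and 249 CPM with TP-3654 and vehicle) lay higher in every TP-3654 library. So did Cish (45.8 CPM with TP-3654, 21.8 CPM with vehicle) and Pim2 (91.2 and 39.8 CPM with TP-3654 and vehicle), which are among the STAT5 targets. Other targets of the pathway, named after their values were seen, overlapped between the groups. Their log2 fold changes were 0.28 for Pim1, 0.24 for Socs1, -0.05 for Bcl2, -0.00 for Mcl1 and -0.10 for Ccnd3. Il2rg, the receptor chain that pairs with Il7r and was picked after its values were seen, stood at 165 and 163 CPM with TP-3654 and vehicle. These 6 lists are described by counts and medians, and neither a list nor a difference between lists was tested.

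**Figure D4:**
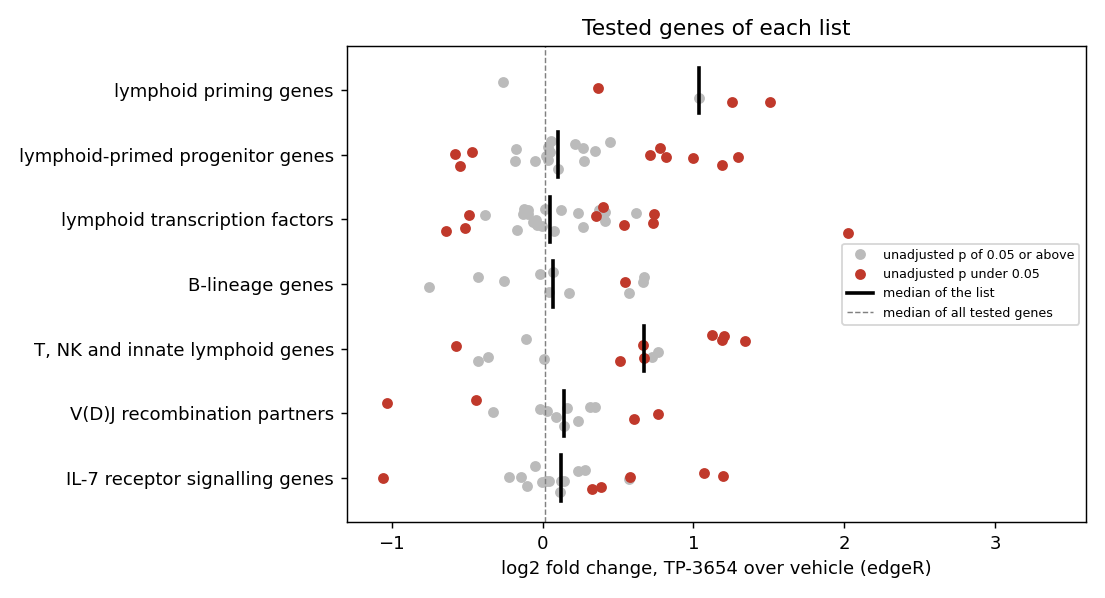
Log2 fold change of TP-3654 over vehicle in edgeR for each tested gene of the 8 lymphoid priming genes and of 6 lists of related genes, red where the unadjusted p was under 0.05. The black bar is the median of each row, from 0.05 for the lymphoid transcription factors to 1.04 for the 5 tested lymphoid priming genes, and the dashed line is the median of all tested genes at 0.01.

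Pearson's r of log2 CPM, given as a description over 6 libraries that share the treatment contrast, was 0.88 between Il7r and Ly6d, 0.89 between Dntt and Ly6d and 0.81 between Il7r and Dntt. Satb1 had r of 0.18 with Ly6d and 0.97 with Flt3, while Rag2 had r of -0.00 with Il7r and -0.62 with Satb1. Flt3 had r of 0.60 with Il7r, 0.66 with Dntt and 0.34 with Ly6d. The stem cell factor gene Hlf, picked after its values were seen, had 0.87 with Il7r, 0.86 with Dntt and 0.74 with Ly6d. High r was thus not particular to the lymphoid genes. The genes most like each member were picked by the highest r, which over only 6 libraries favours values near 1. They were Socs2, Cmah and Sla2 for Il7r (r of 0.99, 0.99 and 0.99). For Dntt they were Arvcf, Rnf215 and Llgl1 (0.995, 0.990 and 0.985), for Ly6d Zfp395, Slc35d3 and Fads2 (0.99, 0.98 and 0.98). Satb1 was most like Nav1, Slc9a2 and Cul9 (0.98, 0.97 and 0.97) and Rag2 most like Zscan12, Pim3 and Tprkb (0.998, 0.996 and 0.988).

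Besides the granulocyte-monocyte progenitor markers, those of other cells were summed in each library, and no marker of any list was at 0 in all 6 libraries. The 13 mature neutrophil and monocyte markers summed to 129 to 221 CPM with TP-3654 and 197 to 494 CPM with vehicle, where replicate 1 had the 494 CPM and the others 282 and 197 CPM. Their part in the values of the lymphoid genes was not tested. Of 8 B cell markers 7 were analysed and summed to 30.1 to 33.7 CPM with TP-3654 and 30.9 to 46.2 CPM with vehicle. Of these, 6 averaged under 1 CPM, and Ms4a1, which encodes CD20, had a count in 2 of 6 libraries. The 10 T and NK cell markers summed to 156 to 238 CPM with TP-3654 and 237 to 285 CPM with vehicle, mostly Nkg7. Without Nkg7 they summed to 22.4 to 26.2 CPM with TP-3654 and 12.9 to 21.8 CPM with vehicle, the other direction and without overlap. The authors' mean signal was 360 for Lck, against 21.7 for Ncr1 and 9.90 for Klrd1, so that sum leans on Lck. Of the 5 T and NK cell markers tested, 3 had a positive and 2 a negative log2 fold change. Cd3e, a chain of the T cell receptor complex, had a count in 1 of 6 libraries, and 7 of the 10 averaged under 1 CPM.

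Ccr9, Ly6d and Dntt are also expressed by plasmacytoid dendritic cells. Of 14 markers of that cell type 13 were analysed, and they summed to 397 to 487 CPM with TP-3654 and 433 to 692 CPM with vehicle, with 0 of them at 0 in all libraries. Ly6c2, which monocytes also express, set the direction of that sum, at 20.6 to 65.5 CPM with TP-3654 and 83.2 to 363 CPM with vehicle. Without Ly6c2 the sum was 366 to 422 CPM with TP-3654 and 324 to 356 CPM with vehicle, higher with TP-3654 and without overlap. Of the 13 markers analysed, 5 averaged under 1 CPM. Of the 10 markers tested, 7 had a positive and 3 a negative log2 fold change. Among the positive ones were the transcription factor genes Runx2 (0.42) and Tcf4 (0.39), both higher in every TP-3654 library. In the authors' deposited table Bst2 (-0.27), Smim5 (-0.21), Klra17 (-1.21) and Ly6c2 (-2.11) had negative log2 fold changes. The other markers of this cell type in it had positive ones. Siglech, the marker that defines these cells, stood at 0.370, 1.35 and 2.91 CPM in TP-3654 replicates 1 to 3 and at 0.433, 0.0901 and 0 CPM in vehicle replicates 1 to 3. Its mean was 1.55 CPM with TP-3654 and 0.175 CPM with vehicle, with overlap between the groups. The authors' mean signal was 11.4 for Siglech, against 1829 for Runx2 and 1824 for Tcf4, so the sum without Ly6c2 rests little on Siglech. The part of plasmacytoid dendritic cells in the values of the lymphoid genes was not tested. The 8 markers of the LSK sort summed to 1970 to 2290 CPM with TP-3654 and 1614 to 1938 CPM with vehicle, without overlap, and all 8 averaged at least 1 CPM. The erythroid markers summed to 753 to 1612 CPM with TP-3654 and 893 to 1565 CPM with vehicle. The megakaryocyte markers summed to 318 to 360 CPM with TP-3654 and 291 to 342 CPM with vehicle, mostly Itga2b, an integrin gene that stem cells also express. Without Itga2b they summed to 46.6 to 115 CPM with TP-3654 and 100.2 to 115 CPM with vehicle, and 4 of 5 tested markers had a negative log2 fold change (median -0.44). The mast cell and basophil markers summed to 101 to 257 CPM with TP-3654 and 259 to 333 CPM with vehicle, also without overlap. Leaving out the most abundant gene of a list, a step chosen after the values were seen, kept the granulocyte-monocyte progenitor, LSK sort, and mast cell and basophil sums apart in the same direction.

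**Figure D5:**
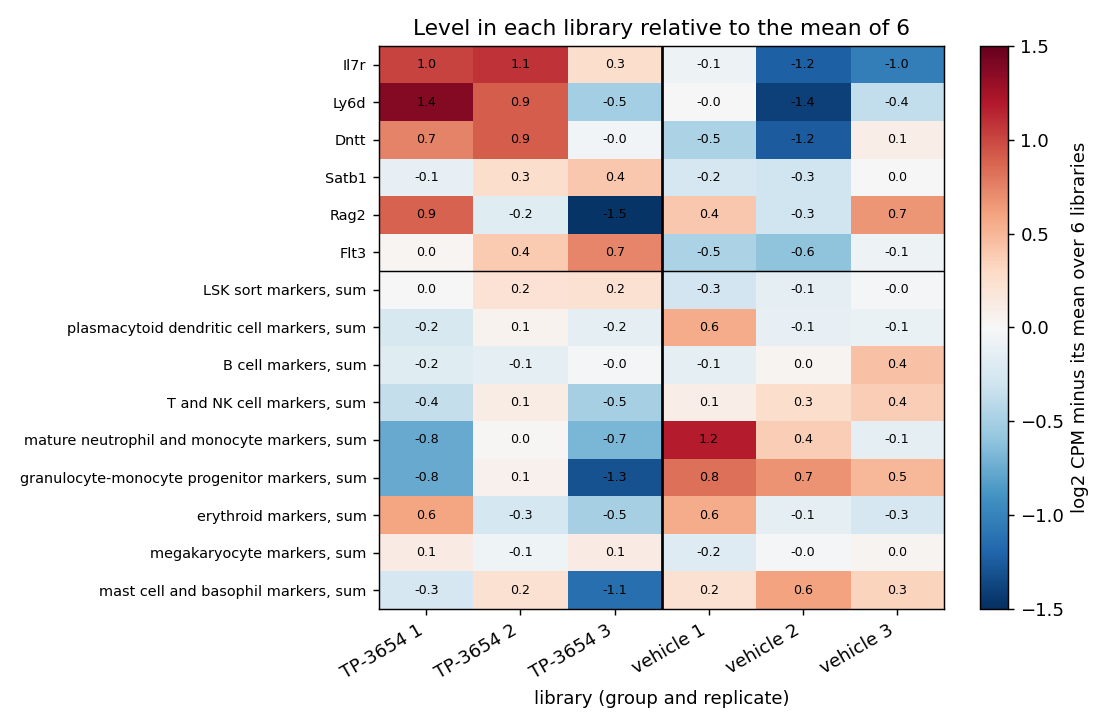
Level of 5 lymphoid priming genes, Flt3 and the summed markers of 9 cell types in each library, as log2 CPM minus its mean over the 6 libraries (red higher, blue lower), with TP-3654 libraries left of the line. Il7r, Ly6d and Dntt are highest in TP-3654 replicates 1 and 2, while Satb1 and Flt3 are highest in TP-3654 replicate 3 and the granulocyte-monocyte progenitor markers are high in all 3 vehicle libraries.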

How the data were processed

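RNA-seq of poly(A)-selected RNA from sorted LSK cells was analysed in 6 libraries, 3 per group, placed by their labels. The authors deposited raw counts per Entrez gene. Their own comparison was deposited as a mean normalized signal, a log2 fold change and its error, a Wald score and p-values, per the file headers. The submitters' processing notes list HISAT2 2.1.0, SAMtools 1.9.0 and DESeq2, with mm10 and GRCm38 as builds. Neither counter, annotation nor strand setting is given in the sources used here. The deposited signal means had a median ratio of 0.879 to means recomputed from the deposited counts, and the log2 fold changes from both had r = 0.90 across genes, so that table is given only as the authors' own.

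Symbols came from the authors' table, else from RefSeq (GRCm38.p6), for 15839 of 15845 genes. Counts were tested with edgeR 4.0.16 in R 4.3.3 (TMM, filterByExpr, robust quasi-likelihood F test, Benjamini-Hochberg over 13149 genes). The filter removed 2696 genes with 0.0674% of counts. The SE was obtained by dividing the size of the log2 fold change by the root of F. Log2 CPM used a prior count of 2. Alternatives were DESeq2 1.42.0, limma-voom (limma 3.58.1) with and without sample weights, other scalings and filters, no robust option, a replicate block, and each library left out. The edgeR step was tested on simulated data.

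The genes and lists were chosen with earlier results of these data known. All 8 genes are named, with up to 4 genes per list by smallest p among those with an unadjusted p under 0.05, and the 3 most correlated genes per tested member. Intervals from the fit cover the spread between libraries.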

Additional observations from a re-analysis of the deposited data

How the results depend on the processing

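No alternative changed the sign of Il7r, Ly6d, Dntt or Satb1. Il7r was called by DESeq2 (log2 fold change 1.50) and by limma-voom with sample weights (1.82), and Dntt by the same tools (1.02 and 1.51). Rag2 turned positive with sample weights (0.0819), and without 1 library it ran from -0.98 to 0.12. Ebf1, untested at its counts of 0 to 5, ran from -0.70 to 0.03 as a difference of mean log2 CPM without 1 library. Over all genes, where edgeR called 0 with all 6 libraries (2244 at an unadjusted p under 0.05), DESeq2 called 644, limma-voom with sample weights 169, the fit without a low-count filter 5, and fits without 1 library 0 to 31.

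The counts of called genes per list, 0 in edgeR, were 5 in DESeq2 and 3 with sample weights for the lymphoid-primed progenitors, and 4 and 1 for the transcription factors. They were 0 and 0 for the B-lineage genes and 4 and 0 for the T, NK and innate lymphoid genes. For the V(D)J partners they were 1 and 1, and for the IL-7 receptor list 3 and 2. All list calls with sample weights were higher with TP-3654. Of all 13149 genes tested, sample weights called 120 higher and 49 lower. Without 1 library, 0 to 1 were called among the progenitor genes, the transcription factors and the IL-7 receptor list.

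The replicate block gave 3 called genes over all genes, and no member of the 8 was called with it. Same-numbered libraries did not visibly deviate together (correlations of -0.01, -0.01 and 0.03), beside -0.04 to 0.05 for unlike-numbered ones. With 3 libraries per group this check cannot exclude that the numbers pair the samples. Library totals limit Rag1, Ccr9 and Ebf1, whose counts per library were 0 to 18.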
